A study of Homo sapiens with 38 samples.

Results

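The 47 genes described here are regulators of the cell cycle and genes of DNA replication. They comprised 8 cyclins, 4 cyclin-dependent kinases (CDKs), 5 CDK inhibitors, 3 genes of the retinoblastoma (RB) family, 5 E2F transcription factors, the 6 subunits of the MCM2-7 helicase, 4 genes of replication licensing and the replication fork, 2 proliferation markers, 5 mitotic regulators, 3 enzymes that set the phosphorylation of CDKs, and the transcription factors MYBL2 and FOXM1. Members were taken by symbol from a table of 57133 genes and found under all 47 symbols. A filter on low counts left 16674 genes for testing, 46 of them members. CDKN2C, the gene of the inhibitor p18, did not pass it, with 0 to 3 counts in every library (0 to 0.671 CPM, counts per 1000000).

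RNA was sequenced from the 3′ ends of transcripts in 38 libraries of Shef6, a human embryonic stem cell line that comes from a single embryo, so that every group shares its genotype. All groups came from naive cells adapted to serum coating, that is, to culture without feeder cells. Naive hPSCs were kept in PXGL (N2B27 basal medium with the MEK inhibitor PD0325901, the tankyrase inhibitor XAV939, the PKC inhibitor Gö6983 and the cytokine LIF), on serum coating or on the basement membrane matrix Geltrex. They were then moved to Geltrex and to media without the MEK and PKC inhibitors or LIF: plain N2B27, the ready-made media E8 and mTeSR, N2B27 plus XAV939 (XAV), and N2B27 plus XAV939, FGF2 and Activin A (FAX). Of the 38 libraries, 30 belonged to experiment Ex1, which sampled naive cells on each coating, days 2, 3, 4, 6 and 8 of N2B27 and of E8, and days 4, 6 and 8 of mTeSR. The other 8 were from experiment Ex2, with naive cells on Geltrex beside day 4 of N2B27, XAV and FAX. Each of the 19 groups had 2 libraries. The study calls such replicates technical in some places and biological in another, so the p-values below measure only the spread between these libraries.

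The cell cycle runs through G1, S, G2 and M phases, and each step is driven by a CDK bound to a cyclin. D-type cyclins with CDK4 or CDK6 begin the phosphorylation of RB in G1, cyclin E with CDK2 completes it, and the E2F factors freed from RB family proteins then transcribe the genes of S phase. CDK inhibitors hold these kinases back, the MCM helicase is loaded on origins by CDC6 and CDT1 and opens the DNA in S phase, and cyclin B with CDK1 carries cells into mitosis. Pluripotent stem cells are known for a short G1 phase, and D-type cyclin genes are known targets of mitogen signalling through MEK and ERK, the pathway that PXGL inhibits.

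The stretches upstream of 5 members are shown because these genes stand for the patterns below: CDK6, which rose at every stage, CCND3, which fell over days, E2F2, which fell early, MCM6, a helicase subunit that differed between media, and CDC20, a mitotic gene that rose early. Each is the 250 bases before the RefSeq transcript start on GRCh38.p14, written 5′ to 3′ along the gene. For CCND3 that start lies inside the gene span given further on, which begins at a start farther upstream, and for the other 4 the window ends at the gene. Capitals mark 3 words searched on both strands: TTTGGCGC or TTTCGCGC, a form of the E2F site, CCAAT, the box bound by NF-Y, and TTTGAA, a form of the CHR element found in many mitotic genes. Overlapping words are joined in a single run of capitals.
CDK6, chr7:92836574-92836823, minus strand: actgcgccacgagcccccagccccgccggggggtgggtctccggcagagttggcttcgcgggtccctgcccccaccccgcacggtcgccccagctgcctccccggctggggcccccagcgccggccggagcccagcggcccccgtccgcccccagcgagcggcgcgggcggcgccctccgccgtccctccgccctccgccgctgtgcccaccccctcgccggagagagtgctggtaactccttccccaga
CCND3, chr6:42048689-42048938, minus strand: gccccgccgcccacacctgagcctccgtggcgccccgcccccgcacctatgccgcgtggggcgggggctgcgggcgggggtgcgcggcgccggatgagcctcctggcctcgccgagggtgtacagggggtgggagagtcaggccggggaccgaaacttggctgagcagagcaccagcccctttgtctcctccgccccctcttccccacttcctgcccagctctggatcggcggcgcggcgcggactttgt
E2F2, chr1:23531234-23531483, minus strand: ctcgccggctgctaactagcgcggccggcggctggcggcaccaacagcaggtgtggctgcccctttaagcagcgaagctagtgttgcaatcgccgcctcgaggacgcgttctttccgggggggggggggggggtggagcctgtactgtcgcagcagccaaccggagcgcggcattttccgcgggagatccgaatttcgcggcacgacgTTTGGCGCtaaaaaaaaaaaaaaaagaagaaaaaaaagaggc
MCM6, chr2:135876444-135876693, minus strand: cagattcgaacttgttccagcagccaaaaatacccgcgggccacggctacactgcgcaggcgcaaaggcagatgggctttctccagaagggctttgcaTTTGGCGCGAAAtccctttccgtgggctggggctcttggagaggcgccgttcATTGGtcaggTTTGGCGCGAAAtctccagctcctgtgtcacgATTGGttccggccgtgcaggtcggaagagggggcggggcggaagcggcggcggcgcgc
CDC20, chr1:43358731-43358980, plus strand: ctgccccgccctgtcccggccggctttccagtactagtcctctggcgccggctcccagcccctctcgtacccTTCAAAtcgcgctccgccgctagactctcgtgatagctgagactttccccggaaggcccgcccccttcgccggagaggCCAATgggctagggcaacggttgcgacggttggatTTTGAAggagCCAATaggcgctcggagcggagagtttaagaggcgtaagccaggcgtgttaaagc
Of the 47 members, 36 had such a window in the table used. The E2F word lay in 6 of these 36 windows (16.7%: RBL1, E2F1, E2F2, MCM6, MCM7 and CDC25A), against 0.996% of all 27305 windows of this length. CCAAT lay in 20 of 36 (55.6%) against 33% of all windows, and TTTGAA in 7 of 36 (19.4%) against 13.6%. Among the 10 windows of CCNA2, the B-type cyclins, CDK1, the proliferation markers and the mitotic regulators, 10 held CCAAT and 6 held TTTGAA. The windows of CDK6 and CCND3 held none of the 3 words, which says only that these letters were not in these windows.

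Total counts ranged from 3038046 to 5612354 per library, so that 3 counts, taken as the floor, stood for 0.518 to 1.06 CPM. The members took 0.536% to 0.717% of the counts of a library. On a score for the leading direction of differences between replicates, 4 libraries stood apart: both E8 libraries of day 2, replicate 1 of E8 at day 3 and replicate 2 of N2B27 at day 2 had scores of 2.29 to 2.71, and the other 34 lay between -1.41 and 1.05. Day 2 and 3 results are therefore also given with this score as a covariate where that changed a call. Changes of these days that stayed under 2-fold without the score are not given with it. The summed level of 6 naive markers was 1067 to 1368 CPM in the 6 naive libraries and 317 to 463 CPM in the 12 libraries of days 6 and 8, whereas 5 primed or formative markers summed to 18.7 to 24.0 and 356 to 555 CPM, as the labels of the groups would have it. General pluripotency markers (POU5F1, NANOG, SOX2) summed to 1281 to 2627 CPM in every library outside the naive group and 1368 to 1816 CPM within it. Sums of markers of other cell types moved with time. Mesoderm or primitive streak markers (4) summed to 4.77 to 23.7 CPM in naive cells and 35.6 to 315 CPM at days 6 and 8. Primitive endoderm markers (5) summed to 0.681 to 4.19 and 9.30 to 170.0 CPM. Trophectoderm or amnion markers (8) summed to 9.93 to 18.5 and 13.4 to 79.4 CPM, ranges that overlap. Within that list the medians of GATA3 and GATA2 rose between these stages, from 2.41 to 16.4 and from 1.06 to 3.75 CPM. Those of ISL1 and CDX2 fell, from 7.60 to 2.14 and from 2.47 to 2.14 CPM, and TFAP2A stood at 1.94 and 1.93 CPM. KRT7, GABRP and VTCN1 had medians of 0.401, 0.982 and 0.204 CPM at days 6 and 8. The 5 fibroblast markers summed to 1.96 to 4.43 and 99.8 to 171 CPM, almost wholly COL1A1 and COL1A2, while DCN, LUM and COL3A1 did not exceed 3.60 CPM in any library. The part of such cells in the results below was not tested. For 13 members another annotated gene overlaps the last 500 bases, where 3′ tags fall, so that their values are uncertain to that extent. For CCND2 and CCNB2 that gene lies on the same strand. For CCND1, CCNE2, CCNA2, CDK2, CDK4, CDKN2A, RBL2, E2F5, MCM2, PLK1 and FOXM1 it lies on the other, and it is not stated whether strand was used in counting. In bulk RNA, fewer cells of a type or of a cell cycle phase cannot be told apart from less RNA per cell.

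Against naive cells, 13 members changed by more than 2-fold at least once: CCND1, CCND2, CCND3, CCNE1, CCNE2, CDK6, CDKN1C, CDKN2A, CDKN2D, RB1, E2F1, E2F2 and E2F5. A member was called where the adjusted p (edgeR's quasi-likelihood test with Benjamini-Hochberg adjustment over 16674 genes) was under 0.05 and the change exceeded 2-fold. In N2B27, 9 of 46 members were called at day 2 (19.6%, where 16.2% of all genes were), but 5 were without replicate 1 of N2B27 and 6 with the library score as a covariate. Day 3 gave 5 members (10.9%, with 15.6% of all genes), day 4 gave 7 (15.2%, with 18.4%), day 6 gave 9 (19.6%, with 23.1%) and day 8 gave 10 (21.7%, with 23.9%). E8 gave 7 members on day 2 (24.6% of all genes), 6 on day 3 (17.8%), another 6 on day 4 (20.8%), 8 on day 6 (23.3%) and 9 on day 8 (27.5%). With mTeSR the numbers were 7 on day 4 (19.8%), 9 on day 6 (22.5%) and 9 on day 8 (25.1%), with XAV 6 (17.0%) and with FAX 5 (17.1%). In the other 14 comparisons the share of members called was below that of all genes. All 15 comparisons share the 6 naive libraries, so that they are not 15 separate tests.

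By adjusted p alone, more members were lower than higher at day 8. In N2B27 at day 8, 6 members were higher (background 24.7%) and 16 lower (20.4%), which is 47.8% of members in all, near the 45.1% of all genes. In E8 at day 8, 9 were higher (background 26.8%) and 24 lower (23.1%), or 71.7% against 49.9%. In mTeSR 6 were higher (24.7%) and 24 lower (20.7%), or 65.2% against 45.4%. The members' median log2 fold change for N2B27, E8 and mTeSR was -0.22, -0.33 and -0.32, with medians over all genes of -0.03, 0.00 and -0.02. At day 2 the balance was 15 higher (background 18.9%) and 7 lower (16.4%) in N2B27, together against 35.3% of all genes, and 13 higher (24.2%) and 16 lower (23.0%) in E8, against 47.2%. Over all comparisons between groups, 441 member results passed the adjusted p. Under RLE scaling 15 of them no longer passed and 7 others did, and under library totals alone 29 no longer passed and 33 others did.

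**Figure D1:**
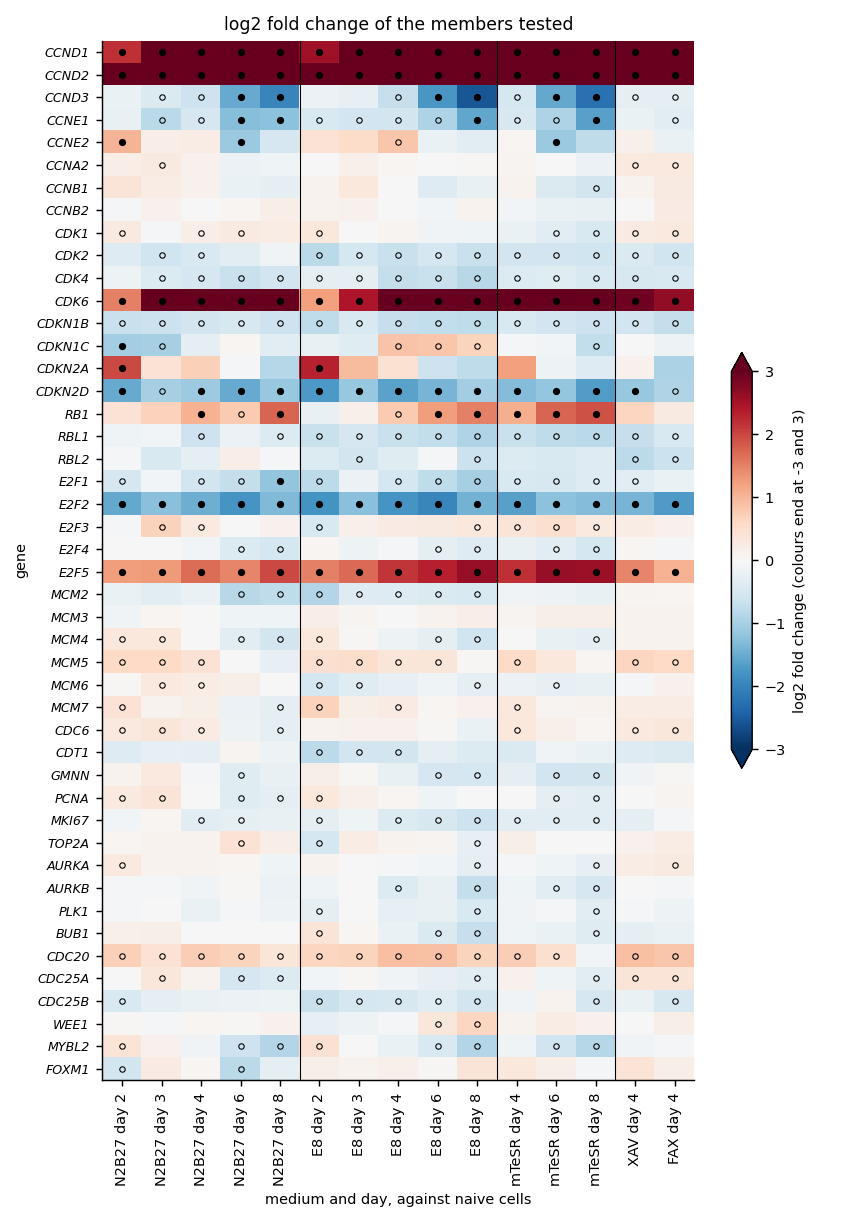
Log2 fold change of the 46 members tested (rows, by role) against naive cells in each medium and day (columns), as a colour scale. CCND1, CCND2, CDK6 and E2F5 are higher throughout, with CCND2 reaching 7.98, whereas the rows of the MCM helicase and the mitotic regulators stay between -0.89 and 0.90.

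The D-type cyclins CCND1 and CCND2 showed the largest changes among the members, and CCND3 moved the other way. CCND1 (chr11:69641156-69654474, plus strand) had 3.75 and 3.48 CPM in naive cells on serum coating, 6.04 and 6.47 CPM on Geltrex in Ex1, and 1.36 and 2.21 CPM in Ex2. In N2B27 it reached 21.1 and 16.6 CPM on day 2, then 49.5 and 61.3 CPM, 85.8 and 91.1 CPM, and 193 and 205 CPM on the next sampled days, and 324 and 260 CPM on day 8. In E8 the day 8 libraries held 226 and 244 CPM, and in mTeSR 205 and 177 CPM. Every one of the 32 later libraries lay above every naive library. Against naive cells CCND1 was 4.55-fold higher at day 2 in N2B27, and at day 8 it was 70.0-fold higher in N2B27 (log2 6.13 ± 0.21 SE, adjusted p = 3.25e-22), 56.3-fold in E8 and 45.8-fold in mTeSR. It rose at each step of the N2B27 course, by 1.55 (log2, adjusted p = 1.3e-06) from day 2 to 3, 0.67 (0.0123) from day 3 to 4, 1.17 (1.26e-06) from day 4 to 6 and 0.55 (0.0206) from day 6 to 8.

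CCND2 (chr12:4269771-4305353, plus strand), the second D-type cyclin, rose sooner and then levelled off. The 6 naive libraries held 0.882 to 5.11 CPM (4 to 20 counts, a median of 3.97 CPM). N2B27 held 263 and 195 CPM on day 2, 648 and 569 CPM on day 3, 677 and 697 CPM on day 4, 747 and 672 CPM on day 6, and 598 and 565 CPM on day 8. Again the later libraries did not overlap with the naive ones. The rise was 70.6-fold at day 2 in N2B27 (log2 6.14 ± 0.21 SE, adjusted p = 6.94e-22), and at day 8 it was 179-fold in N2B27, 224-fold in E8 and 248-fold in mTeSR. From day 2 to day 3 in N2B27 CCND2 rose by another 1.41 (log2 ± 0.16 SE, adjusted p = 3.29e-07), and the 3 later steps did not pass the test. The size of both rises rests on few naive counts, and the naive level of CCND1 itself differed between experiments, as given further on.

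CCND3 (chr6:41934934-42050357, minus strand), went the other way. Its naive libraries held 87.4 to 102 CPM with a median of 93.8. At day 4 N2B27 held 57.9 and 62.1 CPM in Ex1 and 63.9 and 62.1 CPM in Ex2, at day 6 31.1 and 34.7, and at day 8 25.2 and 22.7 CPM. At day 8 E8 held 16.8 and 14.8 CPM and mTeSR 20.3 and 19.5 CPM. At day 8 CCND3 was 3.94-fold lower in N2B27 (log2 -1.98 ± 0.12 SE, adjusted p = 7.06e-16), and 5.95-fold (3.08e-18) and 4.73-fold (1.32e-16) lower in the other media E8 and mTeSR. At day 2 its log2 fold change was -0.21 in N2B27 and -0.17 in E8, and neither passed the test. In N2B27 it stood at -0.42 at day 3, -0.62 at day 4 and -1.52 at day 6, each past the adjusted p, and the step from day 4 to 6 was -0.86 (adjusted p = 1.05e-05).

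CDK6 (chr7:92604921-92836573, minus strand), a kinase partner of the D-type cyclins, rose with CCND1. Naive libraries held 2.38 to 5.73 CPM (7 to 26 counts), and N2B27 held 12.2 and 12.5 CPM on day 2, 42.7 and 29.7 CPM on day 3, 56.8 and 51.8 CPM on day 4, 70.0 and 57.4 CPM on day 6, and 113 and 99.8 CPM on day 8. E8 held 9.87 and 10.5 CPM on day 2, 22.2 and 24.5 CPM on day 3, 54.1 and 54.0 CPM on day 4, 101 and 105 CPM on day 6, and 107 and 111 CPM on day 8. No later library overlapped with a naive one. CDK6 was 2.85-fold higher at day 2 in N2B27 and 24.5-fold, 25.2-fold and 22.8-fold higher at day 8 in N2B27, E8 and mTeSR (log2 SE 0.15 each, adjusted p of 6.54e-23, 4.1e-23 and 1.98e-22). CDK4, the other kinase partner, was lower past the adjusted p in 14 of 15 comparisons with log2 values of -0.28 to -0.82, and at day 8 stood at -0.58, -0.82 and -0.45 in N2B27, E8 and mTeSR. Its change never exceeded 2-fold, and at day 2 in N2B27 it was -0.16 (adjusted p = 0.257).

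**Figure D2:**
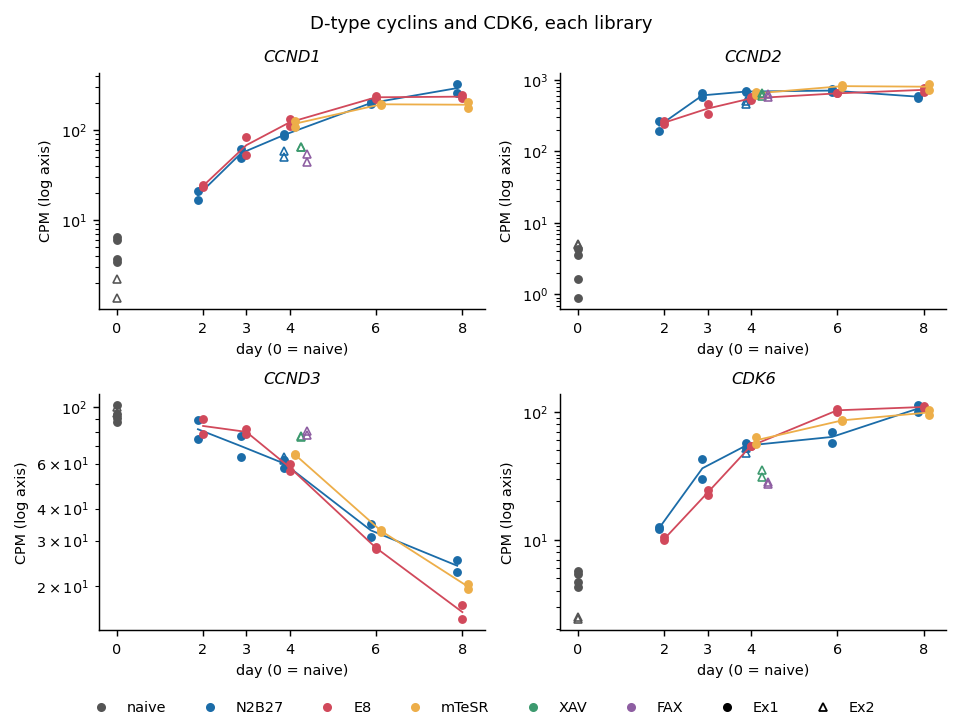
CPM of CCND1, CCND2, CCND3 and CDK6 in each library (log axis) by day, with naive libraries at day 0, media by colour, Ex2 as open triangles and lines through the means of Ex1. CCND1 climbs from 1.36 to 6.47 CPM in naive cells to 177 to 324 CPM at day 8, CCND2 is already at 195 to 266 CPM at day 2, CCND3 falls to 14.8 to 25.2 CPM at day 8, and CDK6 reaches 95.2 to 113 CPM there.

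Cyclins E and A, which act at the start of S phase and through it, changed less. CCNE1 had 77.3 to 96.8 CPM in naive cells, 35.1 and 39.4 CPM in N2B27 at day 8, 28.0 and 31.4 in E8, and 29.2 and 27.04 in mTeSR. All day 8 libraries lay below all naive ones, and the fall was 2.35-fold in N2B27 (adjusted p = 1.06e-08), 2.95-fold in E8 (1.07e-10) and 3.11-fold in mTeSR (8.91e-11). CCNE2, counted at low levels, had 1.70 to 4.92 CPM in naive cells, 7.98 and 7.33 CPM in N2B27 at day 2 (log2 1.02 ± 0.27, adjusted p = 0.00318) and 2.08 and 1.40 CPM at day 6 (-1.11 ± 0.35, adjusted p = 0.00934). Both calls were lost when single libraries were left out, with 0.95 at day 2 without replicate 1 of N2B27 and -0.85 at day 6 without replicate 2. CCNE2 was also called in mTeSR at day 6 (-1.10). That call was lost with 1 library left out (-0.92) and under 3 other settings. CCNE2 is among the genes whose ends overlap another gene (INTS8). CCNA2 stayed between 232 and 355 CPM in all 38 libraries, with log2 fold changes of -0.17 to 0.29 and no call. CDK2, the partner of both cyclins, was lower past the adjusted p in 12 of 15 comparisons and ran from 51.2 to 70.4 CPM in naive cells to 38.04 and 37.1 CPM in E8 at day 8 (log2 -0.66, adjusted p = 0.00101), but N2B27 at day 8 held 52.4 and 58.8 CPM (-0.10, adjusted p = 0.651). CDK2 overlaps PMEL in the same way.

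Among the CDK inhibitors, CDKN2D and CDKN1B were lower in all later libraries than in all naive ones. CDKN2D (chr19:10566460-10569059, minus strand), which encodes p19, an inhibitor of CDK4 and CDK6, had 16.5 to 32.0 CPM in naive cells and 4.73 to 14.2 CPM in the 32 later libraries. Its log2 fold change lay between -1.72 and -0.91, past the adjusted p in each of the 15 comparisons and past 2-fold in 13. At day 8 it was 2.19-fold lower in N2B27 (adjusted p = 0.000445), 2.08-fold in E8 (0.000852) and 3.22-fold in mTeSR (9.83e-06). Without replicate 2 of the day 8 libraries it stood at -0.91 in N2B27 and -0.99 in E8. With naive libraries of Ex1 alone the day 8 values were -0.98 in N2B27 and -0.89 in E8, under 2-fold, and with the library score as a covariate the day 2 values were -0.82 in N2B27 (adjusted p = 0.0073) and -0.55 in E8 (0.173). CDKN1B (chr12:12685498-12722369, plus strand), which encodes p27, had 70.7 to 86.8 CPM in naive cells and 39.5 to 65.4 CPM later. Its fall was small, -0.45 to -0.76 on the log2 scale, but past the adjusted p in each comparison. In all, 4 members (CCND1, CCND2, CDK6, E2F5) lay above all naive libraries in all 32 later ones, as did 4.76% of all genes, and 3 (CDKN1B, CDKN2D, E2F2) lay below, as did 3.35%. The first 4 were called higher in all 15 comparisons (3.45% of all genes), E2F2 was called lower in all (1.04%), and the other 2 were lower past the adjusted p in all, as E2F2 was (3.47%). Some calls of E2F5 and E2F2 were lost under other settings, as given with these genes.

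CDKN1C (chr11:2883213-2885775, minus strand), the gene of p57, was the inhibitor whose level differed between media. Naive cells held 27.7 to 42.2 CPM. N2B27 held 13.0 and 17.7 CPM on day 2, 17.9 and 14.0 CPM on day 3, 20.4 and 21.2 CPM on day 4, 32.2 and 33.5 CPM on day 6, and 20.8 and 29.7 CPM on day 8. E8 held 27.5 and 26.2 CPM on day 2, 27.2 and 21.4 CPM on day 3, 59.7 and 54.8 CPM on day 4, 49.6 and 62.8 CPM on day 6, and 52.2 and 46.9 CPM on day 8. The early fall in N2B27 was -1.04 ± 0.20 at day 2 (adjusted p = 0.000152), and it was -0.92 against the naive libraries of the same experiment, -0.82 without replicate 1 of N2B27 at day 2 and -0.95 without replicate 1 of the naive libraries of Ex2. In E8 CDKN1C was instead higher than in naive cells at days 4, 6 and 8, by 0.87, 0.84 and 0.66, past the adjusted p. The Ex2 libraries of N2B27 at day 4 held 34.3 and 30.3 CPM, above the 20.4 and 21.2 CPM of Ex1. CDKN2A, the locus of p16 and p14ARF, was barely counted: naive libraries had 1 to 6 counts, N2B27 at day 2 had 19 and 9 (log2 1.99, adjusted p = 0.00815) and E8 had 8 and 14 (2.30, adjusted p = 0.00254). These calls did not last when a library was left out, with an adjusted p of 0.172 without replicate 1 of N2B27 and 0.0837 without replicate 2 of E8. With the library score as a covariate the adjusted p was 0.0427 in N2B27 and 0.0567 in E8.

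In the RB family, RB1 rose while its relatives did not. RB1 (chr13:48303744-48599436, plus strand) had 2.04 to 5.58 CPM in naive cells, 13.4 and 14.7 CPM in N2B27 at day 8, 13.6 and 10.1 in E8, and 16.5 and 15.1 in mTeSR. All of these libraries lay above the naive ones, and the rise was 3.38-fold (adjusted p = 6.31e-07), 2.86-fold (1.05e-05) and 3.78-fold (2e-07). At day 2 RB1 stood at 0.43 in N2B27 and -0.22 in E8 on the log2 scale, and neither passed. RBL1, which encodes p107, was lower past the adjusted p in 12 of 15 comparisons, with 22.1 to 28.9 CPM in naive cells and log2 values of -0.40, -0.90 and -0.81 at day 8 in N2B27, E8 and mTeSR. RBL2, which encodes p130, passed in 4 comparisons, each time lower.

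The 5 E2F factors divided in direction. E2F2 (chr1:23506438-23531233, minus strand), an activator of S phase genes, had 9.26 to 10.0 CPM in the naive libraries of Ex1, 17.0 and 16.8 CPM in those of Ex2, and 2.39 to 7.41 CPM in the later libraries. It fell in each of the 15 comparisons, by 1.24 to 1.96 on the log2 scale, and at day 8 it was 2.52-fold lower in N2B27 (adjusted p = 0.00151), 2.67-fold in E8 (0.000865) and 2.46-fold in mTeSR (0.0031). The adjusted p at day 8 was 0.0588 without replicate 2 in N2B27 and 0.0544 without replicate 2 in mTeSR. Against naive libraries of the same experiment E2F2 was under 2-fold at day 3 in N2B27 (-0.95) and E8 (-0.94) and at day 6 in mTeSR (-0.94). At day 4 in N2B27, each experiment set against its own naive cells on Geltrex gave -0.90 in Ex1 (adjusted p = 0.0315), under 2-fold. In Ex2 it gave -2.38 (2.6e-06). E2F1, another activator, had 30.9 to 39.2 CPM in naive cells and 14.7 and 16.01 CPM in N2B27 at day 8 (-1.18, adjusted p = 2.3e-08), its only call. By adjusted p alone E2F1 was lower in 12 of 15 comparisons and higher in none. In mTeSR at day 8 E2F1 held 28.1 and 24.8 CPM, 0.78 above N2B27 (adjusted p = 0.00158).

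E2F5, a repressor that binds RBL1 and RBL2, rose in each comparison. It had 4.68 to 5.88 CPM in the naive libraries of Ex1, 1.36 and 1.65 CPM in Ex2, 12.8 and 7.09 CPM in N2B27 at day 2 (0.75, not called, without replicate 1), 14.3 and 18.7 at day 8, 33.0 and 18.5 in E8 at day 8, and 25.7 and 24.0 in mTeSR. These rises came to 3.93-fold, 6.15-fold and 5.88-fold at day 8 (adjusted p of 1.78e-07, 1.2e-10 and 5.91e-10). Against naive libraries of the same experiment E2F5 stood at 0.94 in N2B27 at day 2 and 0.97 at day 3, under 2-fold. When fitted to the compared libraries alone it had an adjusted p of 0.0527 in N2B27 at day 2 and 0.0825 in FAX. XAV and FAX belong to Ex2, whose naive libraries held less E2F5. Over the other settings the rise ranged from 1.39 to 2.90 in XAV and from 1.02 to 2.49 in FAX. At day 4 in N2B27 it was 1.61 in Ex1 and 2.97 in Ex2, each against its own naive cells on Geltrex. E2F5 overlaps RBIS at its end. E2F3 passed in 6 comparisons as higher and in E8 at day 2 as lower (-0.45, adjusted p = 0.0071), peaking at 213 and 185 CPM in N2B27 at day 3 against 99.7 to 144 CPM in naive cells. E2F4, a repressor, was lower at day 8 by 0.53, 0.40 and 0.53 on the log2 scale in N2B27, E8 and mTeSR, past the adjusted p in each.

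Several calls of days 2 and 3 were lost with the library score as a covariate. E2F2 was then at -0.82 in N2B27 (adjusted p = 0.125) and -0.71 in E8 (0.315), and the number of members called at day 2 went from 9 to 6 in N2B27 and from 7 to 4 in E8. Beside E2F2 and CDKN2D, the calls lost were CCNE2 in N2B27 (0.88, adjusted p = 0.0506) and CDKN2A in E8 (2.29, 0.0567). CCND1, CCND2, CDK6 and E2F5 were still called in E8, with CDK6 at 1.12 (adjusted p = 0.00482). At day 3 in E8, E2F2 (-0.96) and CDKN2D (-0.80) fell under 2-fold with the score. E2F2 stood at -0.68 (adjusted p = 0.22) and CDKN2D at -0.70 (0.0908) without replicate 1 of E8 at day 3.

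**Figure D3:**
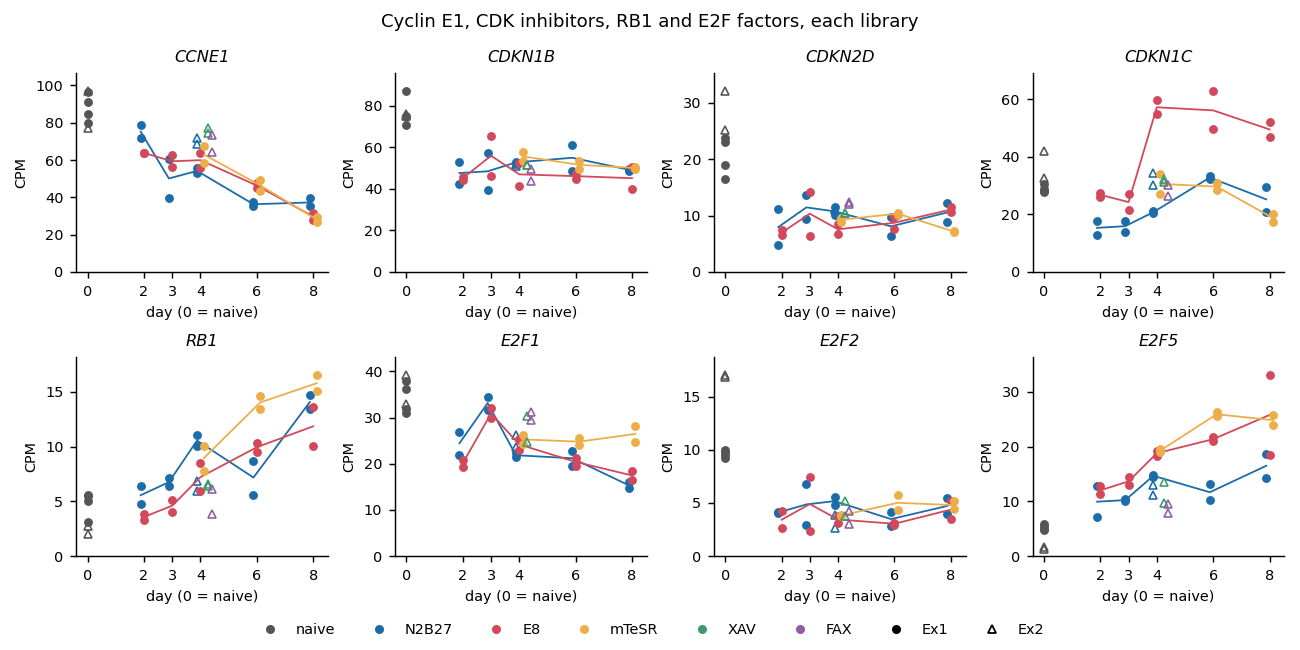
CPM of CCNE1, 3 CDK inhibitors, RB1 and 3 E2F factors in each library by day, with naive libraries at day 0, media by colour, Ex2 as open triangles and lines through the means of Ex1. CDKN2D, CDKN1B and E2F2 lie below the naive libraries from day 2. RB1 and E2F5 lie above them at day 8, with a dip from day 4 to day 6 in N2B27. CDKN1C reaches 46.9 to 62.8 CPM in E8 from day 4.

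No subunit of the MCM helicase changed by more than 2-fold in any of the 15 comparisons. Of 90 results (6 subunits in 15 comparisons), 19 were higher and 17 lower past the adjusted p, within log2 values of -0.89 to 0.70. Over the same comparisons 21.9% of the results of all genes were higher and 18.7% lower, so that these shares were near the background. The summed level of the 6 subunits was 1025 to 1108 CPM in naive cells, 1188 and 1246 CPM in N2B27 on day 2, 1104 and 1101 CPM on day 4 in Ex1, 908 and 878 CPM on day 6, and 831 and 809 CPM on day 8. The day 8 sums were 913 and 899 CPM in E8 and 998 and 983 CPM in mTeSR, all below the naive range. The early side came from MCM4, MCM5 and MCM7, which at day 2 in N2B27 were higher by 0.33, 0.60 and 0.43 (adjusted p of 0.00499, 0.00108 and 0.00102). MCM5 alone gave 10 of the 19 higher results, at later days as well, and was lower in none. In E8 at day 2 MCM7 held 251 and 259 CPM against 143 to 176 CPM in naive cells (0.70 ± 0.10, adjusted p = 9.23e-07). Both of these E8 libraries were among those that stood apart on the library score.

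At day 8 MCM2, MCM4 and MCM7 were lower in N2B27, MCM2, MCM4 and MCM6 in E8, and MCM4 in mTeSR. MCM4 held 357 to 424 CPM in naive cells, 448 and 526 in N2B27 at day 2, 270 and 257 in N2B27 at day 8, and 225 and 288 in E8 at day 8, so that its fall at day 8 was 0.56 and 0.60 on the log2 scale (adjusted p of 1.13e-05 and 3.57e-06). MCM2 was lower by 0.75 in N2B27 (5.5e-05) and 0.46 in E8 (0.00652) at day 8, and stood at -0.23 in mTeSR (0.18). MCM7 was lower by 0.28 in N2B27 at day 8 (130.8 and 127.9 CPM, adjusted p = 0.0284), and MCM6 by 0.27 in E8 (93.4 and 96.2 CPM against 97.1 to 131 CPM in naive cells, adjusted p = 0.0306). MCM3 did not pass the test in any comparison, with log2 values of -0.13 to 0.19 and 130 to 203 CPM in the 38 libraries.

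The licensing genes and the fork clamp PCNA likewise had no call. CDC6, which loads the helicase, was higher past the adjusted p in 6 comparisons and lower in N2B27 at day 8 (96.5 and 102 CPM against 106 to 132 CPM in naive cells). CDT1, its partner, was lower in 3 comparisons, most in E8 at day 2 (77.5 and 73.5 CPM, -0.80, adjusted p = 0.000764), but its naive libraries ranged from 76.1 to 174 CPM. GMNN, the gene of geminin, which blocks CDT1, was lower in 5 comparisons, with -0.53 in E8 and -0.55 in mTeSR at day 8. PCNA peaked at 308 and 244 CPM in N2B27 at day 3, against 193 to 234 CPM in naive cells, and was down to 162 and 183 CPM in N2B27 at day 8 (-0.30).

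Regulators of mitosis and proliferation markers also stayed within 2-fold. Of 75 results for AURKA, AURKB, PLK1, BUB1 and CDC20, 17 were higher and 12 lower past the adjusted p, against the same background, and 14 of the 17 were those of CDC20. CDC20 (chr1:43358981-43363203, plus strand), an activator of the anaphase-promoting complex, had 47.7 to 62.0 CPM in naive cells, 84.1 and 89.6 CPM in N2B27 at day 2 (0.72 ± 0.13, adjusted p = 5.76e-05), 74.7 and 89.6 CPM in E8 at day 2, and 94.0 and 73.0 CPM in E8 at day 8 (0.67, adjusted p = 6.7e-05). It lay above all naive libraries in 29 of 32 later ones, and the exception by comparison was mTeSR at day 8 with 54.6 and 44.6 CPM (-0.09, adjusted p = 0.655).

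The mitotic kinases were higher in 3 results (AURKA at day 2 in N2B27 and in FAX, BUB1 at day 2 in E8) and lower past the adjusted p in 12, 10 of them at days 6 and 8. AURKB, the kinase of the chromosomal passenger complex, had 226 to 258 CPM in naive cells, 134 and 165 CPM in E8 at day 8 (-0.70 ± 0.11, adjusted p = 1.95e-06), 174 and 170 CPM in mTeSR (-0.50, adjusted p = 0.000299), and 231 and 199 CPM in N2B27 (-0.18, adjusted p = 0.177). BUB1, a spindle checkpoint kinase, followed the same order, with -0.68 (0.000117), -0.36 (0.0315) and 0.00 (0.982). PLK1 and AURKA were lower at day 8 in E8 (-0.46 and -0.30) and mTeSR (-0.31 and -0.26), and did not pass in N2B27. MKI67, the marker of cycling cells, was lower in 9 comparisons and higher in none, reaching 139 and 157 CPM in E8 at day 8 against 196 to 251 CPM in naive cells (-0.61, adjusted p = 1.68e-05). TOP2A, the topoisomerase of S phase and mitosis, had 964 to 1230 CPM in naive cells and its lowest values, 803 and 664 CPM, in the E8 libraries of day 2 that stood apart.

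The remaining members set or transcribe the mitotic programme. CCNB1, CCNB2 and CDK1 had no call, and CCNB2 never passed the adjusted p. CDK1 was higher in 6 comparisons and lower in 2, with 76.8 and 66.1 CPM in mTeSR at day 8 against 94.3 to 102 CPM in naive cells (-0.45). The phosphatases that activate CDKs were lower at day 8: CDC25A by 0.42, 0.34 and 0.32 on the log2 scale in N2B27, E8 and mTeSR, and CDC25B by 0.56 in E8 and 0.51 in mTeSR. WEE1, the kinase that inhibits CDK1, was higher in E8 at day 8 with 207 and 142 CPM against 95.1 to 130 CPM in naive cells (0.64, adjusted p = 1.06e-05). MYBL2, a transcription factor of G2 and M phase genes, was higher at day 2 in both N2B27 (0.40, adjusted p = 0.0237) and E8 (0.45, adjusted p = 0.00818) and lower at day 8 by 0.88, 0.87 and 0.86, with 168 to 196 CPM in the 6 libraries of day 8 against 269 to 448 CPM in naive cells. FOXM1, which acts with it, did not pass at day 8 in any medium. Over all roles, 33 members were never called, with log2 values of -0.90 to 0.90, against 13 that were called at least once (55.3% of all genes were).

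**Figure D4:**
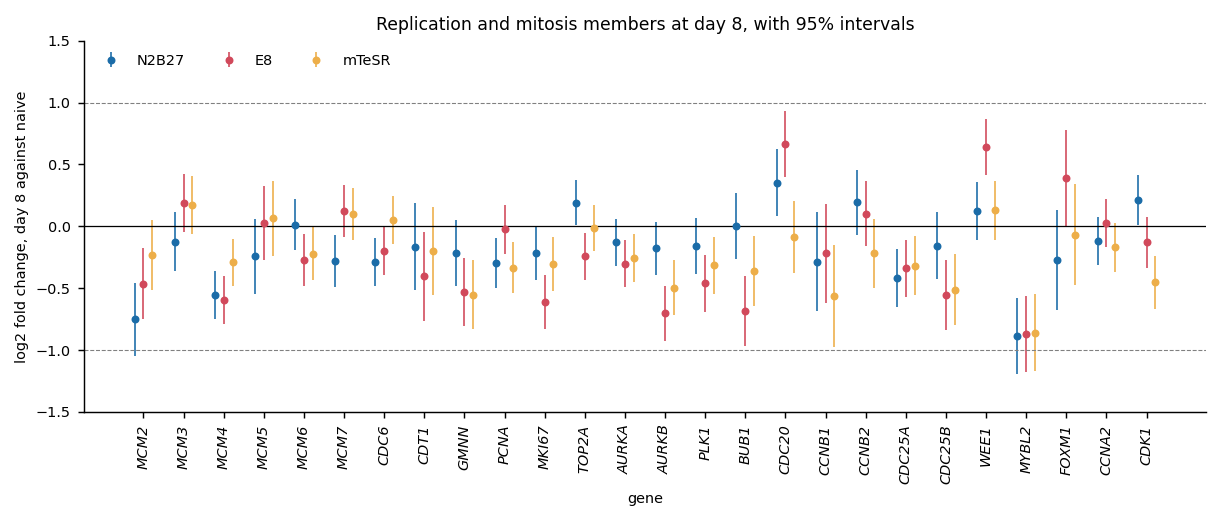
Log2 fold change against naive cells at day 8 for 26 members of replication, mitosis and their control, in N2B27, E8 and mTeSR, with bars for 95% intervals and dashed lines at 2-fold. MYBL2 lies between -0.88 and -0.86 in the 3 media, and CDC20 and WEE1 in E8 stand at 0.67 and 0.64.

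Between media, the question was whether E8 and mTeSR, which hold growth factors that N2B27 lacks, gave other levels at the same day. The comparisons with E8 and those with mTeSR share the N2B27 libraries. Past 2-fold, 1 member differed between E8 and N2B27 at day 4 (CDKN1C, background 2.49%) and none at day 2 (background 4.55%), day 3 (1.68%), day 6 (5.28%) or day 8 (7.29%) by edgeR's quasi-likelihood test, and DESeq2 gave the same counts. By adjusted p alone, 5 members differed on day 2 (background 13.7%), 4 on day 3 (6.06%), another 4 on day 4 (7.93%), 10 on day 6 (15.9%) and 13 on day 8 (19.3%). At an unadjusted p under 0.05 there were 12, 11, 11, 19 and 24. The share of all genes at an unadjusted p under 0.05 was not counted, here or below. Such counts are therefore not a result about the members in particular. The day 2 comparison moved with the scaling. Under library totals alone 15 members passed the adjusted p, with no share of all genes counted beside them. Of all genes called at day 2, 62.14% were higher in E8 under the TMM scaling used but 43.54% under library totals. CDKN1C was higher in E8 at day 2 (0.81), day 4 (1.46 ± 0.17, adjusted p = 6.87e-07), day 6 (0.78) and day 8 (0.96), and its E8 libraries lay above those of N2B27 from Ex1 at each of these days. It passed 2-fold also at day 2 without replicate 2 of N2B27 (1.08), and at day 8 without replicate 2 of N2B27 (1.25) or of E8 (1.04).

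MCM6, TOP2A, BUB1 and AURKB were among the members lower in E8. MCM6 (chr2:135839626-135876443, minus strand) had 79.7 and 79.4 CPM in E8 against 125 and 110 in N2B27 at day 2 (-0.57 ± 0.11, adjusted p = 0.000807), 86.4 and 91.8 against 138 and 144 at day 3 (-0.66, adjusted p = 0.000149), and 102 and 90.0 against 150 and 144 at day 4 (-0.61, adjusted p = 0.000219). The groups did not overlap at these days, and at day 6 the difference was -0.30 (0.0438). In mTeSR MCM6 was lower at day 4 (-0.53, adjusted p = 0.00163) and day 6 (-0.42, 0.00869). BUB1 was lower in E8 at day 4 (-0.43), day 6 (-0.44) and day 8, where E8 held 55.9 and 52.3 CPM and N2B27 88.6 and 86.2 CPM (-0.69, adjusted p = 0.000573). TOP2A was lower in E8 at days 2, 6 and 8 (-0.57, -0.36 and -0.43), AURKB at day 8 (-0.53) and MKI67 at day 8 (-0.39). PLK1, AURKA and CDC20 did not pass on any day, and the CDC20 libraries of E8 lay above those of N2B27 from Ex1 at days 4, 6 and 8 (0.29, 0.21 and 0.32).

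On the higher side in E8 stood E2F5 at day 6 (0.87) and day 8 (0.65), FOXM1 at days 2, 6 and 8 (0.73, 0.84 and 0.66), WEE1 at day 8 (0.52) and CDK6 at day 6 (0.69, adjusted p = 0.000205). At day 3 CDK6 had been lower in E8 (-0.62, adjusted p = 0.0102), as was CCND2 with 329 and 465 CPM against 648 and 569 CPM (-0.61, adjusted p = 0.0132). Beside the day 8 differences, N2B27 had more RNA of endoderm and primitive streak markers: SOX17 averaged 60.5 CPM against 5.5 CPM in E8, FOXA2 35.7 against 2.8, TBXT 62.7 against 15.4 and EOMES 65.1 against 8.5. Their part in the differences of the members was not tested.

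The difference of the courses over days 2 to 8 was tested as an interaction, and it passed for 9 members (background 11.0%): CDK6 (adjusted p = 0.000321), TOP2A (0.00317), WEE1 (0.00982), BUB1 (0.0118), E2F3 (0.0132), MCM2 (0.0144), CCND2 (0.019), CCND3 (0.0384) and FOXM1 (0.0411). CDK6 was lower in E8 at day 3 and higher at day 6, as given above, and its day 8 values overlapped between both media. BUB1 stood at 117 and 110 CPM in E8 against 98.5 and 95.5 CPM in N2B27 at day 2, and was lower in E8 from day 4. In the fit to the compared libraries alone 4 of these 9 passed, CCND2, CDK6, TOP2A and BUB1.

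**Figure D5:**
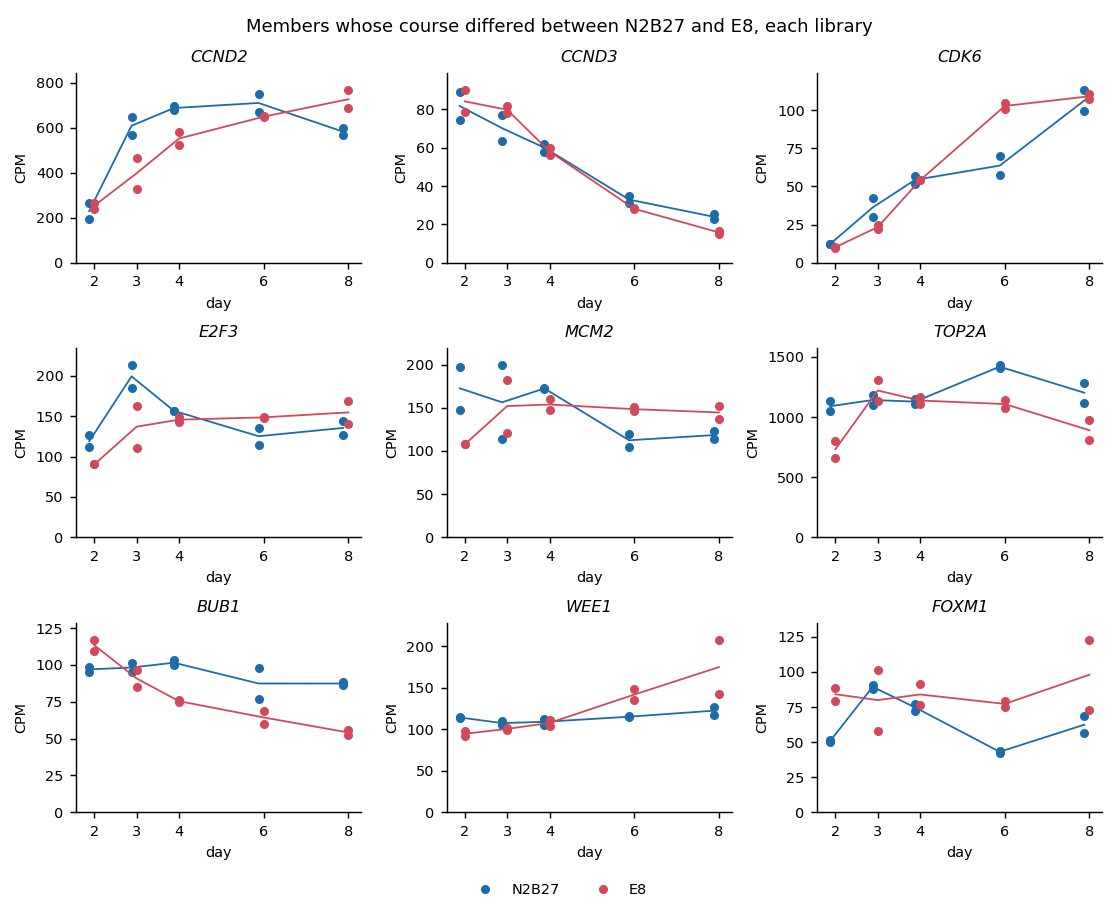
CPM by day of the 9 members whose course over days 2 to 8 differed between N2B27 (blue) and E8 (red) by the interaction test, with a point for each library and lines through the means of 2 libraries. CDK6 crosses between days 3 and 6, BUB1 and TOP2A end lower in E8, and WEE1 ends higher in E8 with its 2 libraries at 207 and 142 CPM.

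mTeSR against N2B27 gave 1 member past the adjusted p at day 4 (MCM6, background 4.73%), 11 at day 6 (9.06%) and 7 at day 8 (10.9%). Past 2-fold stood E2F5 at day 6 alone (1.15 ± 0.22, adjusted p = 0.00106, background 2.62%), and none at day 4 (background 1.58%) or day 8 (3.80%), where 7 and 21 members had an unadjusted p under 0.05. E2F5 had 26.2 and 25.6 CPM in mTeSR and 13.1 and 10.2 CPM in N2B27 at day 6, and its difference was 0.98 without replicate 2 of N2B27. CDK1 was lower in mTeSR at day 6 (-0.60, adjusted p = 0.000361) and day 8 (-0.66, adjusted p = 7.78e-05), and CCND1 at day 8 (-0.61, adjusted p = 0.00398). RB1 and FOXM1 were higher at day 6, by 0.97 and 0.98, and passed 2-fold when replicate 1 of either group was left out.

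In Ex2, 1 member differed from N2B27 at day 4, in XAV and in FAX, which holds XAV939 too. FAX was not tested against XAV. CDK6 held 47.5 and 51.7 CPM in N2B27, 30.7 and 35.1 in XAV, and 28.2 and 27.1 in FAX, without overlap. Its difference from N2B27 was -0.59 ± 0.14 in XAV (adjusted p = 0.0168, background 1.34%) and -0.84 ± 0.14 in FAX (adjusted p = 0.00113, background 0.846%), in both below 2-fold. With no filter on low counts the adjusted p in XAV was 0.0960. No other member passed, by edgeR or DESeq2, and at an unadjusted p under 0.05 there were 4 members in XAV and 6 in FAX.

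Along the N2B27 course, 3 members passed 2-fold from day 2 to 3 (background 3.18%): CCND1 (1.55), CCND2 (1.41) and CDK6 (1.54). None did from day 3 to 4 (background 1.09%, with 5 past the adjusted p, background 3.36%), 2 did from day 4 to 6 (3.89%, CCND1 at 1.17 and CCNE2 at -1.24), and none from day 6 to 8 (1.43%, with 4 past the adjusted p, background 3.58%). The unadjusted p was under 0.05 for 16 members from day 3 to 4 and 11 from day 6 to 8. By adjusted p alone, 11 members passed from day 4 to 6 (background 12.5%). CCND3 (-0.86), CCNE1 (-0.58), CCNE2, MCM2 (-0.62), MCM4 (-0.34), CDC6 (-0.35), CDC25A (-0.58) and FOXM1 (-0.79) were lower, and CCND1, CDKN1C (0.66) and TOP2A (0.33) higher. CDK6 was still rising from day 6 to 8 (0.74, adjusted p = 0.000257). RB1 rose at that step too (0.98, adjusted p = 0.0192), but its day 6 libraries had lain below those of day 4 in Ex1. Without replicate 1 of N2B27 at day 6 the step of RB1 was 1.32. The call of CCNE2 from day 4 to 6 had an adjusted p of 0.128 without replicate 2 of N2B27 at day 4 and 0.235 without replicate 2 at day 6.

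The coating of naive cells, serum against Geltrex, left no member past the adjusted p by edgeR's quasi-likelihood test or DESeq2 (background 0.174% by adjusted p and 0.0480% past 2-fold), with 9 members at an unadjusted p under 0.05. Between naive cells on Geltrex in Ex2 and in Ex1, 8 members passed the adjusted p, as did 15.2% of all genes. CCND1 was lower in Ex2 by 1.77 on the log2 scale (adjusted p = 0.00562), as were CCNE2 (1.18), E2F5 (1.64), CCNB1, GMNN, CDC25A and FOXM1, whereas CDT1 was higher (0.86).

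Because N2B27 at day 4 was sampled in both experiments, its change against naive cells could be set side by side. CCND1 rose by 3.81 in Ex1 and 4.87 in Ex2 (log2), CCND2 by 8.09 and 6.59, and CDK6 by 3.59 and 4.33, so that these rises were found in each experiment on its own. The test of the difference passed for 6 members (background 11.7%), with Ex2 minus Ex1 at -1.49 for CCND2, -1.48 for E2F2, -1.19 for CDT1, 1.03 for CCNB1, 0.94 for FOXM1 and 0.50 for CDC25A. Leaving out single libraries brought that number down in each of the 8 cases, as given in the last section, and CCNB1 and CDT1 passed in each of the 8. Against naive libraries of the same experiment, the day 8 rises were 5.93, 5.61 and 5.32 for CCND1 and 7.81, 8.13 and 8.28 for CCND2 in N2B27, E8 and mTeSR.

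Further genes of the same pathways were followed on 3 lists drawn up beside the members. Of 46 other S phase and replication genes, 0 were called higher (16.9% of all genes) and 4 lower (7.03%) in N2B27 at day 8, with 2 higher and 18 lower past the adjusted p (24.7% and 20.4% of all genes) and a median log2 fold change of -0.20. In E8 the numbers past the adjusted p were 5 and 19 (median -0.35, with 26.8% and 23.1% of all genes) and in mTeSR 2 and 28 (median -0.41, with 24.7% and 20.7%). GINS3, a subunit of the replicative helicase complex, fell by 1.77 ± 0.16 in N2B27 (adjusted p = 2.09e-11), UHRF1, which guides maintenance DNA methylation at the fork, fell by 1.258 ± 0.23 (2.27e-05) and POLD1, the catalytic subunit of DNA polymerase delta, fell by 1.08 ± 0.39 (0.0226). Of 40 other G2 and M phase genes, 8 were higher and 6 lower past the adjusted p in N2B27 at day 8 (median -0.03), both below those shares of all genes. In E8 there were 7 and 18 (median -0.25) and in mTeSR 4 and 17 (median -0.24), set against the same shares as above. The call in N2B27 was CENPA, the centromeric histone, which fell by 1.08 ± 0.19 (1.44e-05).

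For E8 against N2B27 at day 8, 1 of the 40 G2 and M phase genes was higher (background 9.57%) and 15 lower (9.69%) past the adjusted p (median -0.23, against 0.01 over all genes), and in mTeSR against N2B27 0 (5.68%) and 13 (5.22%) (median -0.21, against -0.01). Both comparisons share the N2B27 libraries. Of 29 other G1 genes tested, 5 were higher and 7 lower past the adjusted p in N2B27 at day 8 (median -0.13, with 24.7% and 20.4% of all genes), and 2 were called, where 23.9% of all genes were. Its calls were MYC, a transcription factor that drives entry into the cycle (3.75 ± 0.27, adjusted p = 1.2e-13), and CCNG1, cyclin G1 (1.13 ± 0.14, adjusted p = 3.61e-08).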

How the data were processed

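Per the authors, 3′ tag libraries (QuantSeq, single-end) were aligned to hg38 with STAR 2.7.10a, quantified with Salmon 1.9.0 after quality control with FastQC 0.11.9, and summed to genes; the deposited table holds raw whole-number counts per gene symbol. The annotation release and the strand setting of counting are not given in the sources used here. The library names of the Ex2 naive cells carry another day than their titles, and the titles were followed.

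For the tests, edgeR 4.0.16 was run in R 4.3.3 (filterByExpr, TMM, quasi-likelihood F-tests, Benjamini-Hochberg over 16674 genes). The filter kept 99.6% of counts. A fit with 16 levels of medium and day, with the 6 naive libraries pooled, gave the 15 comparisons with naive cells, and a fit with 19 groups of 2 gave all others. The common dispersion came to 0.010, or 10.0% as a coefficient of variation. A call needs an adjusted p under 0.05 and a change over 2-fold. CPM are counts per 1000000 of the TMM-scaled total. Depth limits are those of 3038046 to 5612354 counts per library, and floors cover counting error only, as reads are not independent molecules. The scripts were tested on simulated data.

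The members and lists were chosen with earlier results of these data known. Named were all 47 members, from each of 3 pathway lists the 3 largest rises and falls among those called in N2B27 at day 8, and any gene of the marker lists (pluripotent, naive, primed, trophectoderm, primitive endoderm, mesoderm and fibroblast). The alternatives were RLE scaling, library totals, 2 other filters, DESeq2 1.42.0, the compared libraries alone, the experiment or the library score as a covariate, other choices of naive libraries, the replicate number as a block, and leaving out each library. The library score is the first singular vector of log2 CPM residuals within groups, over 7099 genes with a mean of at least 20 CPM and without the members, and held 23.0% of their variance. Positions are those of GENCODE release 44, and upstream sequences are from RefSeq on GRCh38.p14.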

Additional observations from a re-analysis of the deposited data

Results flagged for a closer look

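In groups of 4 to 10 libraries, a library that lay far from the others was looked for in 92 groups, and 4 were found, about the number chance gives at 1 in 20. CDKN1B had 86.8 CPM in replicate 2 of the naive libraries on serum coating, against 70.7 to 76.1 CPM in the other 5 naive libraries. CDKN1C had 42.2 CPM in replicate 1 of the naive libraries of Ex2, and RBL2 had 22.3 CPM in replicate 1 on serum coating. MCM2 had 185 CPM in replicate 1 of N2B27 at day 4 in Ex2, against 171 to 173 CPM in the other 3.

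The course over days 2 to 8 differed between E8 and N2B27 for 9 members by the interaction test of edgeR: CDK6 (adjusted p = 0.000321), TOP2A (0.00317), WEE1 (0.00982), BUB1 (0.0118), E2F3 (0.0132), MCM2 (0.0144), CCND2 (0.0190), CCND3 (0.0384) and FOXM1 (0.0411). WEE1 and FOXM1 had a wide spread in E8 at day 8, with 207 and 142 CPM and 123 and 73.2 CPM.

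The change of N2B27 at day 4 against naive cells differed between Ex2 and Ex1 for 6 members by the same kind of test, by -1.49 for CCND2, 1.03 for CCNB1, -1.48 for E2F2, -1.19 for CDT1, 0.50 for CDC25A and 0.94 for FOXM1 on the log2 scale. CCNB1 held 146 and 150 CPM in naive cells of Ex2 against 266 to 306 CPM in the other 4 naive libraries, and CDT1 173 and 174 CPM against 76.1 to 130 CPM. E2F2 held 17.0 and 16.8 CPM there against 9.26 to 10.0 CPM. The library names of this naive group carry another day than its titles, and whether that bears on these values was not tested.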

How the results depend on the processing

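Under other settings, 293 counts of members called stayed within 1.5 times the value reported and 8 did not, and single calls were kept in 1250 cases and lost in 37, none with a change of direction. Those of CCND1, CCND2, CDK6, CCND3 and CCNE1 were not lost under any setting or left-out library. With naive libraries of the same experiment, N2B27 at day 3 gave 3 members instead of 5. With the library score as a covariate, E8 at day 2 gave 4 instead of 7, and E8 against N2B27 at day 8 gave 1 (CDKN1C) instead of 0. N2B27 from day 4 to 6 gave 1 instead of 2 with no filter and with DESeq2, and from day 6 to 8 gave 1 (RB1) instead of 0 under RLE scaling. Fitted to the compared libraries alone, the course interaction gave 4 members instead of 9 and the experiment interaction 11 instead of 6. The cause was not tested.

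With a library left out, counts ran from 5 to 9 for N2B27 at day 2 (5 without its replicate 1), and from 0 to 1 for E8 against N2B27 at day 2 (1 without N2B27 replicate 2), day 6 (1 without N2B27 replicate 1) and day 8 (1 without replicate 2 of either). mTeSR against N2B27 at day 6 ran from 0 (without N2B27 replicate 2) to 3 (without replicate 1 of either). N2B27 from day 4 to 6 ran from 1 (without replicate 2 of either day) to 2, and from day 6 to 8 from 0 to 1 (without replicate 1 of day 6). The experiment interaction ran from 2 to 4, with 2 without replicate 2 of naive Geltrex or of N2B27 in Ex1 or replicate 1 of naive Geltrex or N2B27 in Ex2, and 3 without replicate 2 of N2B27 in Ex2. E8 at day 3 went from 6 to 4 without its replicate 1. Single calls lost in this way (34) were of CCNE2, CDKN1C, CDKN2A, CDKN2D, E2F2, E2F5 and RB1. Examples not given above are RB1 in N2B27 at day 4 (0.90 to 0.99 without any of 5 libraries) and mTeSR at day 4 (0.90 without its replicate 1). Another is E2F5 in FAX (0.90 without replicate 2).

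Under library totals alone the median of all genes in E8 at day 2 went from 0.00 to -0.15 against naive cells with 45.92% in place of 56.49% of calls on the higher side, and from day 3 to 4 in N2B27 84.19% in place of 73.48%. The labels do not say that a replicate number marks a shared culture or day, and the data do not pair the libraries by it: over 171 pairs of groups and 7137 genes the deviations of same-numbered libraries correlated between -0.594 and 0.50 (median 0.003), over 0.1 in 36. With the replicate block the experiment interaction gave 4 members instead of 6, and the course interaction gave 9 as before. All other counts were as reported. Genes at a few counts (CDKN2A, CDKN2C, CCNE2) are those limited by depth.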
